A study of Homo sapiens with 12 samples.

Results

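The mRNA levels of CCL5, of 8 other inflammatory chemokines (CCL2, CCL20, CXCL1, CXCL2, CXCL8, CXCL10, CXCL16 and CX3CL1) and of the cytokine IL6 were examined in epirubicin-resistant breast cancer cells and in the same cells after silencing of BCRP, the drug transporter encoded by ABCG2. These 10 genes, of 58735 listed, were taken by their GENCODE 29 symbols and found by Ensembl identifier in both expression tables. They were picked with their values in these libraries already known, CCL5 for its high level in resistant cells and after BCRP silencing. Their own differences between groups are therefore given as a description, with no test.

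SK-BR-3, an established cell line from a human breast cancer, carries high HER2. SK/EPI is 1 resistant line derived from it by long exposure to rising concentrations of epirubicin, an anthracycline, so that a single derivation stands for resistance. The first table compared untreated SK-BR-3 with untreated SK/EPI cells. The second compared SK/EPI cells 48 h after transfection with Lipofectamine RNAiMax, which carried siRNA to BCRP in SK/EPI-siBCRP and control siRNA, siNC in the labels, in SK/EPI-siControl. Each of the 4 groups had 3 libraries of poly-T selected RNA. Nothing states that the triplicates were grown apart, so p-values measure only the spread between these libraries, which may be technical.

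Chemokines are small secreted or membrane-anchored proteins that bind G-protein-coupled receptors and direct the migration of leukocytes. They are grouped by the spacing of their conserved cysteines into CC, CXC and CX3C families, and CXC members with a glutamate-leucine-arginine (ELR) motif before the cysteines attract mainly neutrophils. In epithelial and tumour cells many of them are transcribed after TNF, interleukin-1 or interferon signalling through NF-kB, IRF, AP-1 and C/EBP factors, and their mRNAs are often short-lived through AU-rich elements.

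The coding sequences around the cysteine motif are shown because they define the families by which the values are ordered. They were read from the GENCODE 29 transcripts, with the cysteine codons and any codons between them in capitals.
CCL5 (CC): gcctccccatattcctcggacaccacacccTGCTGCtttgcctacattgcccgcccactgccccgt
CCL2 (CC): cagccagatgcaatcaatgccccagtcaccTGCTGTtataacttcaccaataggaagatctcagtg
CCL20 (CC): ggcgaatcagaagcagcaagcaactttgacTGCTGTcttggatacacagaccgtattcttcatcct
CXCL1 (ELR CXC): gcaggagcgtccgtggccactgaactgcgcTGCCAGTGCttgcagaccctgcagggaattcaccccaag
CXCL2 (ELR CXC): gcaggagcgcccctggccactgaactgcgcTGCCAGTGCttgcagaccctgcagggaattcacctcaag
CXCL8 (ELR CXC): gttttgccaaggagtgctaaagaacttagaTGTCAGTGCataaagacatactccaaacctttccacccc
CXCL10 (CXC): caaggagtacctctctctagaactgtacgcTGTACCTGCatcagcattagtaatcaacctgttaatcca
CXCL16 (CXC): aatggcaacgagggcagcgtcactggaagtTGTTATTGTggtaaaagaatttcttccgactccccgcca
CX3CL1 (CX3C): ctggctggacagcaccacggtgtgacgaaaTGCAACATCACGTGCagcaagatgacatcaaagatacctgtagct
ELR codons preceded the motif in CXCL1, CXCL2 and CXCL8 and in none of the other 6 chemokines. The coding sequences of CXCL1 and CXCL2 were identical at 93.5% of 324 bases, and those of CXCL2 and CXCL3 at 94.4%. How reads with several positions were counted is not given in the sources used here, so values of CXCL1 and CXCL2 are uncertain.

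The 250 bases before the RefSeq start were given for 6 of the 10 genes, namely CCL20, CXCL1, CXCL2, CXCL8, CXCL10 and IL6, and not for CCL5, CCL2, CXCL16 and CX3CL1. Of these windows, 4 are shown for the motifs they hold, 5′ to 3′ on the strand of the gene (RefSeq, GRCh38.p14), ending before any GENCODE exon of the gene. Capitals mark matches to the 10-base NF-kB consensus, to the core of the interferon-stimulated response element (ISRE, GAAA on either side of any 2 bases), to the AP-1 site (TGANTCA) or to the C/EBP site (TTGCNNAA), each searched on both strands.
IL6, chr7:22726950-22727146, plus strand (C/EBP, then NF-kB): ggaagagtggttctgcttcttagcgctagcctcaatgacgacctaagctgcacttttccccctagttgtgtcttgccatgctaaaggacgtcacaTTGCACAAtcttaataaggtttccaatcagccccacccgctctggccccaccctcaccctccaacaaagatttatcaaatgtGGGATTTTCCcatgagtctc
CXCL10, chr4:76023498-76023747, minus strand (ISRE, then 2 NF-kB): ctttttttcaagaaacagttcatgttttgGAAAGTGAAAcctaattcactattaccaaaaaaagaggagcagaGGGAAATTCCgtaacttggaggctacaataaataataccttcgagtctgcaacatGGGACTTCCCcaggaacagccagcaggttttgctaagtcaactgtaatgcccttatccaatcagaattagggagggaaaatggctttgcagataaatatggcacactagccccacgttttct
CXCL1, chr4:73869143-73869392, plus strand (NF-kB, overlapping matches on both strands): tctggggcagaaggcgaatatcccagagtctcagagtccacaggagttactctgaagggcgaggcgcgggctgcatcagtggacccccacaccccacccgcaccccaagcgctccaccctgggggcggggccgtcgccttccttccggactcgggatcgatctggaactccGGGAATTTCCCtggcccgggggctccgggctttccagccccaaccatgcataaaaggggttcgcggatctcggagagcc
CXCL8, chr4:73740319-73740505, plus strand (AP-1): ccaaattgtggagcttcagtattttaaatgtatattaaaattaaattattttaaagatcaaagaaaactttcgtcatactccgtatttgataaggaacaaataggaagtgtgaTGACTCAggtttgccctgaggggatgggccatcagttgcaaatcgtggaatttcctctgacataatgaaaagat
The NF-kB consensus was found in 5 of the 6 windows, those of CCL20, CXCL1, CXCL2, CXCL10 and IL6, and in 5.21% of 35116 promoters of the same length. The ISRE core was found in 1 of 6 (CXCL10) and 3.02% of all, the AP-1 site in 1 of 6 (CXCL8) and 6.57% of all, and the C/EBP site in 2 of 6 (CXCL2 and IL6) and 9.05% of all. A match describes letters only, and the absence of a match says only that these letters were not in the window.

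The deposited values were read as FPKM (fragments per kilobase of exon, scaled by library total), and read numbers were recovered from their steps. Libraries of the first table held 15830381 to 19051182 reads on genes, and those of the second held 17078952 to 20545811. Replicates differed by 1.63 to 4.20 times the variance that counting alone gives, so no library repeated another. All 7 markers of SK-BR-3 cells (ERBB2, GRB7, EPCAM and 4 keratins) were above 3 reads in every library. Their summed level was 4009 to 4239 FPKM in SK-BR-3, 2384 to 2512 in SK/EPI, 2799 to 2850 in SK/EPI-siControl and 2398 to 2437 in SK/EPI-siBCRP. In SK/EPI 4 of the 7 fell by the limma test described below for pathway genes, ERBB2 (which encodes HER2) from 658.9 to 133.1 FPKM, GRB7 from 111.6 to 45.5, KRT7 from 491.7 to 184.9 and KRT19 from 1651 to 509.1, while KRT8 and KRT18 rose and EPCAM did not pass. Of all genes tested in that comparison, 37.0% were called lower and 37.9% higher. After BCRP silencing 6 fell and 1 (KRT7) rose, where 18.7% of all genes tested were called lower and 19.4% higher. The log2 differences of the falls ran from -0.06 (EPCAM) to -0.49 (GRB7), with ERBB2 at -0.11, and that of KRT7 was 0.18. The part of these marker differences in the results was not tested. The siBCRP target ABCG2 stood at 33.0 ± 0.673 FPKM (SD, n = 3) with control siRNA and 3.08 ± 0.345 with siBCRP, a log2 difference of -3.06. Its level was 0.0497 ± 0.0266 FPKM in SK-BR-3 and 34.1 ± 1.61 in SK/EPI.

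Of the 10 genes, 4 were at or under 3 reads in every SK-BR-3 library (CXCL1, CXCL2, CXCL10 and IL6), and 1 was so in each other group (CXCL1 in SK/EPI and SK/EPI-siBCRP, CXCL2 in SK/EPI-siControl). The filter on low values kept 6 of the 10 genes in the first comparison and 8 in the second. CCL20 and CXCL10 passed only in the second, and CXCL1 and CXCL2 in neither. In the first, CCL5, CXCL8 and IL6 passed through SK/EPI alone. Between SK-BR-3 and SK/EPI, the 3 libraries of each group did not overlap for 7 of the 10 genes, with 6 higher and 1 lower in SK/EPI, where 77.7% of the 15823 genes tested did not overlap. Between SK/EPI-siControl and SK/EPI-siBCRP, 4 did not overlap, all higher after BCRP silencing, where 50.9% of the 16298 genes tested did not overlap. These counts include what the choice of genes used.

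**Figure D1:**
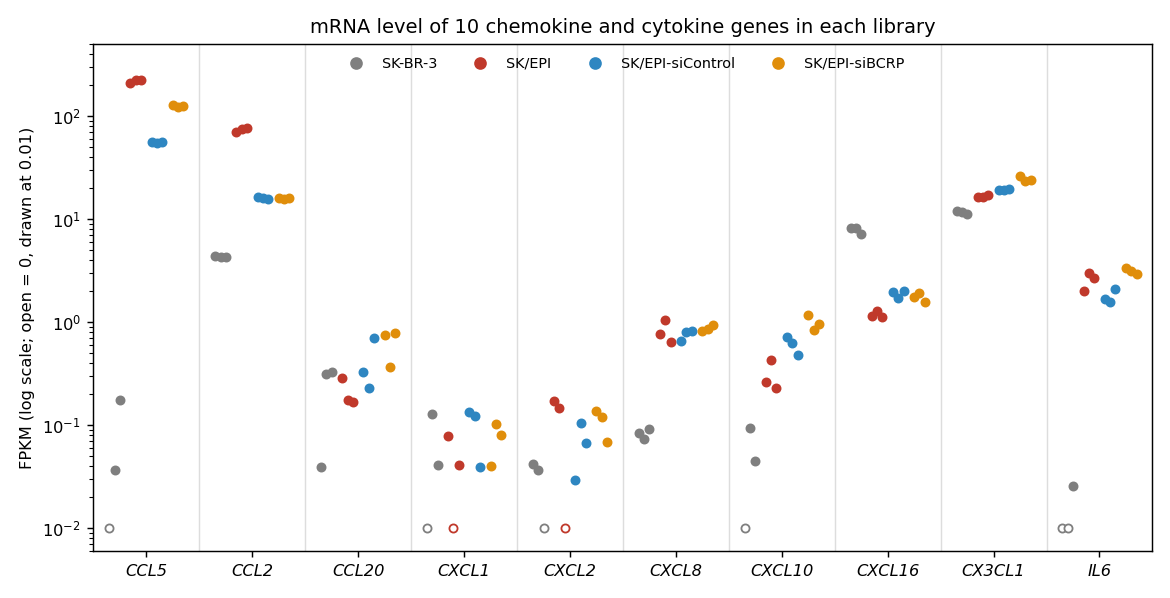
FPKM (log scale) of the 10 genes in each of the 12 libraries, with 1 point per library, coloured by group, and open points for libraries at 0, drawn at 0.01. CCL5 covered the widest range, from 0 in an SK-BR-3 library to 224 in an SK/EPI library, while CXCL1 and CXCL2 stayed under 0.2 FPKM in all 12.

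CCL5 (RANTES; ENSG00000271503, chr17:35871491-35880793, GRCh38) attracts T cells, monocytes and eosinophils through receptors that include CCR1 and CCR3. In SK-BR-3 cells it had 0, 1 and 5 reads, or 0, 0.0366 and 0.174 FPKM. In SK/EPI cells it was at 209.7, 222.4 and 224 FPKM, from at least 6076 reads per library.

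All 3 SK/EPI libraries lay far above all 3 SK-BR-3 libraries. The mean was 0.0701 ± 0.0915 FPKM in SK-BR-3 and 218.7 ± 7.80 in SK/EPI, which ranked CCL5 at place 20860 and place 111 of all 58735 genes. The ratio of reads, scaled to library size, was 2917, with a 95% exact counting interval of 1340 to 7950. It rests on 6 reads in SK-BR-3, 5 of them in replicate 3, without which the ratio was 11211 (interval 2012 to 442837). The difference of mean log2(FPKM + 1) was 7.68, SE 0.06. The added 1 understates differences of genes with low levels, and this holds for every log2 difference given here.

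After transfection CCL5 was at 55.7, 54.1 and 55.7 FPKM in SK/EPI-siControl and at 127.5, 122.7 and 124.7 FPKM in SK/EPI-siBCRP. The groups did not overlap, and each varied by under 2% around its mean. The ratio of reads was 2.26 (counting interval 2.19 to 2.34) and the log2 difference 1.16, SE 0.02, with CCL5 at place 637 of all genes in the control and at place 220 after BCRP silencing. In order of level the groups stood as SK/EPI, SK/EPI-siBCRP, SK/EPI-siControl and SK-BR-3, with no overlap between neighbours. The SK/EPI level was 3.96 times that of SK/EPI-siControl. The tables may have been scaled separately, and the transfection and the table cannot be told apart, so this was not tested.

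CCL2 (MCP-1; ENSG00000108691, chr17:34255218-34257203), the monocyte attractant that binds CCR2, followed CCL5 in the first comparison only. It was at 4.41, 4.29 and 4.31 FPKM in SK-BR-3 cells and at 69.3, 74.8 and 76.8 FPKM in SK/EPI cells. The groups were far apart, with a ratio of reads of 17.0 (15.4 to 18.7) and a log2 difference of 3.80, SE 0.04. In SK/EPI-siControl it was at 16.3, 15.8 and 15.7 FPKM, and in SK/EPI-siBCRP at 16.0, 15.8 and 16.1 FPKM. These overlapped, with a ratio of 0.999 (0.938 to 1.06) and a log2 difference of 0.00, SE 0.03. CCL2 in SK/EPI was 4.62 times its level in SK/EPI-siControl, side by side and untested as for CCL5.

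CCL20 (ENSG00000115009, chr2:227805739-227817564) binds CCR6 on dendritic cells and lymphocytes. It stayed below 1 FPKM, at 0.0395, 0.313 and 0.329 FPKM in SK-BR-3 and at 0.288, 0.174 and 0.167 FPKM in SK/EPI. In SK/EPI-siControl it was at 0.330, 0.231 and 0.699 FPKM, and in SK/EPI-siBCRP at 0.741, 0.362 and 0.779 FPKM. The groups overlapped in both comparisons. From 1 to 24 reads per library, the ratio was 0.892 (0.451 to 1.76) in the first and 1.47 (0.972 to 2.24) in the second, so a difference was not detectable at this depth.

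**Figure D2:**
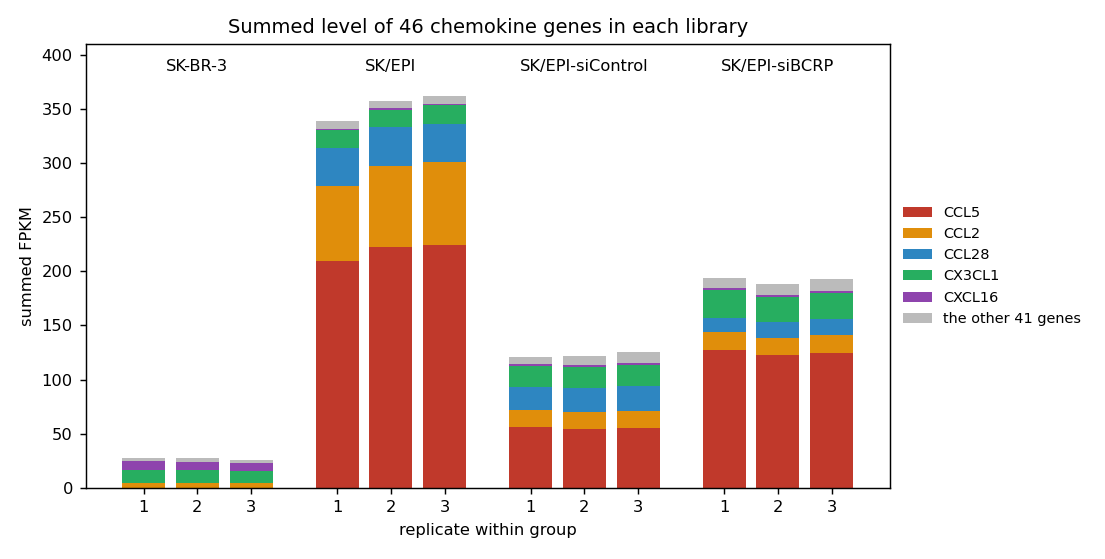
Summed FPKM of 46 chemokine genes in each library, stacked as CCL5, CCL2, CCL28, CX3CL1, CXCL16 and the other 41 genes, with bars from 0. The sum was 26.1 to 27.5 in SK-BR-3 libraries and 339 to 362 in SK/EPI libraries, most of it CCL5 in the latter.

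Because FPKM is a level per length of exon, the chemokine genes could be set side by side. The length was that of all merged exons of a gene, 5983 bases for CX3CL1 and 1512 for CCL5. Genes whose expressed transcripts are shorter than that are understated, so the shares are approximate. CCL5 made up 0% to 0.664% of the summed FPKM of the 46 chemokine genes in SK-BR-3 libraries and 61.9% to 62.2% in SK/EPI libraries. In SK-BR-3 cells most of the sum was CX3CL1 (42.5% to 43.6%) and CXCL16 (27.5% to 29.97%). The share of CCL5 was 44.3% to 46.1% in SK/EPI-siControl and 64.7% to 65.7% in SK/EPI-siBCRP, while the sum stood at 121 to 126 and 189 to 194 FPKM. The share of CCL2 was 12.5% to 13.4% in the control and 8.23% to 8.36% after BCRP silencing, at the same CCL2 level.

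The ELR chemokines, which attract neutrophils through CXCR1 and CXCR2, were low throughout. CXCL8 (interleukin-8; ENSG00000169429, chr4:73740506-73743716) had 3, 3 and 4 reads in SK-BR-3 and 34, 43 and 27 reads in SK/EPI. The SK/EPI libraries, at 0.634 to 1.05 FPKM, all lay above the SK-BR-3 libraries, at 0.0730 to 0.0924 FPKM. The ratio of reads was 9.77 (5.10 to 21.0) and the log2 difference 0.74, SE 0.08. With 34 to 37 reads in SK/EPI-siControl and 36 to 44 in SK/EPI-siBCRP, the transfected groups overlapped, at a ratio of 1.15 (0.877 to 1.503). The levels of CXCL8 in the 3 groups of resistant cells overlapped each other.

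CXCL1 (ENSG00000163739, chr4:73869393-73871242) had at most 4 reads in any library and 3 to 8 in all per group. CXCL2 (ENSG00000081041, chr4:74097035-74099293) had at most 5 reads in any library and 2 to 10 per group. Both overlapped in both comparisons, with counting intervals as wide as 0.103 to 4.16 (CXCL1) and 0.875 to 40.2 (CXCL2) in the first. No difference was detectable at this depth. CXCL1 thus stood near the floor in the same cells in which CCL5 and CCL2 were high.

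CXCL10 (IP-10; ENSG00000169245, chr4:76021117-76023497) is induced by interferons and attracts activated T cells through CXCR3. It had 0, 2 and 1 reads in SK-BR-3 and 6, 9 and 5 in SK/EPI. All SK/EPI libraries lay above all SK-BR-3 libraries, but from so few reads the ratio of 6.26 had an interval of 1.86 to 32.9, and without SK-BR-3 replicate 2 it was 12.4. After transfection it was at 0.708, 0.625 and 0.474 FPKM in the control and at 1.18, 0.831 and 0.968 FPKM with siBCRP. These did not overlap, with a ratio of 1.62 (1.10 to 2.42) and a log2 difference of 0.31, SE 0.08, in a group whose highest library had 27 reads.

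CXCL16 and CX3CL1 are made as transmembrane proteins and can be cut from the cell surface by ADAM10 and ADAM17. CXCL16 (ENSG00000161921, chr17:4733526-4739922), the ligand of CXCR6, was the only gene of the 10 with all SK/EPI libraries below all SK-BR-3 libraries. It was at 8.25, 8.12 and 7.18 FPKM in SK-BR-3 and at 1.15, 1.29 and 1.11 FPKM in SK/EPI. The groups lay well apart, at 15.1% of the SK-BR-3 level and a log2 difference of -2.02, SE 0.07. In SK/EPI-siControl it was at 1.95, 1.71 and 2.01 FPKM, and in SK/EPI-siBCRP at 1.77, 1.89 and 1.55 FPKM, which overlapped (log2 difference -0.08, SE 0.07). Of its exon bases, 3.04% are shared with MED11 on the opposite strand.

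CX3CL1 (fractalkine; ENSG00000006210, chr16:57372458-57385048), the ligand of CX3CR1, was the chemokine with the highest level in SK-BR-3 cells. It was at 12.02, 11.8 and 11.1 FPKM there and at 16.2, 16.4 and 17.2 FPKM in SK/EPI. It was at 18.9, 19.1 and 19.6 FPKM in SK/EPI-siControl and at 25.9, 23.3 and 24.1 FPKM in SK/EPI-siBCRP. Neither pair of groups overlapped, but the differences were small beside those of CCL5. The ratio of reads was 1.43 (1.37 to 1.49), a log2 difference of 0.48, SE 0.04, in the first comparison. In the second it was 1.27 (1.23 to 1.31), a log2 difference of 0.33, SE 0.04.

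IL6 (ENSG00000136244, chr7:22725884-22732002) encodes a cytokine that signals through IL6R and IL6ST to STAT3. It had 0, 0 and 1 reads in SK-BR-3 and 82, 113 and 104 reads in SK/EPI, or 2.02, 3.02 and 2.68 FPKM. The groups were separated by a log2 difference of 1.82, SE 0.10, and a ratio of reads of 281 that rests on 1 read, with an interval of 50.02 to 11129. Without SK-BR-3 replicate 3, which held that read, there was no ratio and the lower bound of the interval was 48.5.

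With control siRNA IL6 was at 1.67, 1.55 and 2.10 FPKM, and with siBCRP at 3.35, 3.14 and 2.92 FPKM. All siBCRP libraries lay above all control libraries, at a ratio of reads of 1.77 (1.499 to 2.09) and a log2 difference of 0.58, SE 0.09. The ranges of SK/EPI and SK/EPI-siControl overlapped. Of the exon bases of IL6, 20.7% are shared with the antisense transcript AC073072.1, and without strand the reads of both cannot be told apart. AC073072.1 had 0 reads in SK-BR-3, 3 to 12 per library in SK/EPI, 8 to 14 in SK/EPI-siControl and 5 to 13 in SK/EPI-siBCRP.

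**Figure D3:**
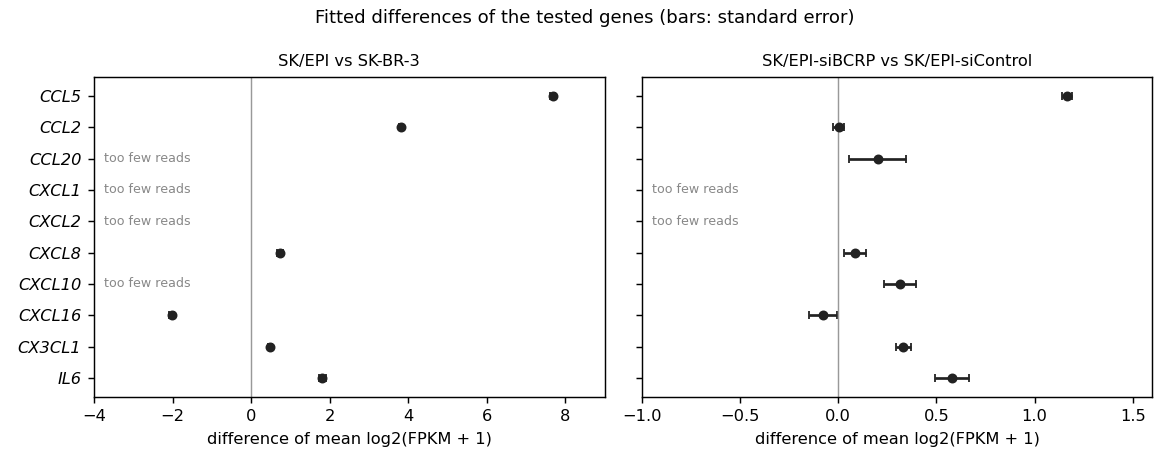
Difference of mean log2(FPKM + 1) in each comparison for the genes with enough reads, with bars of 1 standard error and separate scales. CCL5 lay farthest to the right in both, at 7.68 and 1.16, and CXCL16 at -2.02 and -0.08.

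Leukocytes are a common source of several of these chemokines, so the markers of other cell types were examined beside them. Of 14 leukocyte markers, 5 were above 3 reads in every library in SK-BR-3 and in SK/EPI, and 6 in each transfected group. PTPRC (CD45), the defining marker, had at most 3 reads per untransfected library and 6 to 14 per transfected library, and CD2 and MS4A1 were at 0 in all. The summed level of the list was 4.97 to 5.16 FPKM in SK-BR-3, 32.6 to 34.7 in SK/EPI, 15.1 to 16.3 in SK/EPI-siControl and 15.6 to 16.9 in SK/EPI-siBCRP. CD14, a co-receptor for bacterial lipopolysaccharide, made up most of it in SK/EPI, with 27.4 FPKM there, 0.513 in SK-BR-3, 6.82 in SK/EPI-siControl and 7.96 in SK/EPI-siBCRP.

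Of 5 endothelial markers 2 were above 3 reads in every library in SK-BR-3 and 3 in each other group. Their sum was 6.70 to 6.99 FPKM in SK-BR-3, 27.04 to 28.2 in SK/EPI, 13.9 to 14.2 in SK/EPI-siControl and 22.3 to 22.6 in SK/EPI-siBCRP, nearly all of it CDH5. KDR was at 0 in the 3 groups of resistant cells and PECAM1 was at most 0.229 FPKM. Of 6 fibroblast markers 1 was above 3 reads in every SK-BR-3 library and 2 in each other group, with a sum of 0.827 to 1.78 FPKM and PDGFRA at 0 throughout. CD14 and CDH5 were, like CCL5, higher in SK/EPI than in SK-BR-3. After BCRP silencing their log2 differences were 0.20 (CD14) and 0.65 (CDH5), against 1.16 for CCL5. The part of CD14 and CDH5 in these results was not tested. In bulk RNA, more cells with a transcript and more transcript per cell cannot be told apart.

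The remaining genes of the pathway were counted from 9 lists of 146 genes, of which 145 were in the tables. They were tested over all genes with limma, with Benjamini-Hochberg adjustment and a threshold of 0.05. Between SK/EPI and SK-BR-3, 86 of them had enough reads, and 61 rose, 14 fell and 11 did not pass, where 74.9% of all genes tested were called, 37.9% higher and 37.0% lower. Some of the rises, such as those of CCL28, CCL26, IL1B and DPP4, are of genes that passed the filter through SK/EPI alone, which could not be called lower. After BCRP silencing 90 were tested, and 23 rose, 23 fell and 44 did not pass, where 38.1% of all were called, 19.4% higher and 18.7% lower. The median log2 difference of all genes tested was 0.01 in the first comparison and 0.00 in the second. Among the rises and falls of single pathway genes given below, the largest adjusted p was 0.00943 (ADAM17) in the first comparison and 0.0496 (LTB) in the second, by limma with Benjamini-Hochberg adjustment. Each difference given is of mean log2(FPKM + 1).

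Of 37 other chemokine genes in the tables, 4 were tested in the first comparison, and 2 rose, with 0 falling (0 also at an unadjusted p under 0.05 and by voom). Both, CCL28 and CCL26, passed the filter on low values through SK/EPI alone, so only a rise could be called for them. In that comparison 37.9% of all genes tested rose and 37.0% fell. CCL28, a mucosal chemokine that binds CCR10 and CCR3, rose from 0.0571 ± 0.0311 to 35.4 ± 0.393 FPKM, a difference of 5.11, SE 0.05. CCL26 (eotaxin-3), an eosinophil attractant, had 0 reads in all SK-BR-3 libraries and 21 to 37 in SK/EPI libraries, at least 21.4-fold higher by the lower bound of the exact 95% counting interval of the ratio of reads. CCL17 and CCL22 did not pass (adjusted p = 0.962 and 0.465), and CXCL12 was at 0 in all 12 libraries. After BCRP silencing 5 were tested, and CCL28 fell by 0.59 on the log2 scale, from 22.0 ± 0.556 to 14.3 ± 1.01 FPKM, while the other 4 did not pass, with 0 rising (0 unadjusted and by voom). CCL28 and CCL5, both high in SK/EPI, thus stood on opposite sides after BCRP silencing. In that comparison 19.4% of all genes tested rose and 18.7% fell.

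Of 24 chemokine and interleukin-6 receptor genes, 11 were tested in the first comparison. Of these 8 rose and 3 fell, with a median of 0.58, beside 37.9% rising and 37.0% falling of all genes tested. CCR2, the receptor of CCL2, rose from 0.139 to 6.12 FPKM (2.64, SE 0.06), and CCR1, a receptor of CCL5, from 0.178 to 2.47 FPKM (1.56). CXCR4, the receptor of CXCL12, rose by 1.38, and ACKR2, a scavenger of CC chemokines, fell from 6.83 to 1.66 FPKM (-1.56). After BCRP silencing 1 of 11 rose and 4 fell, with a median of -0.12, beside 19.4% rising and 18.7% falling of all genes tested. CXCR4 rose from 4.89 to 9.24 FPKM (0.80), while CCR2 (-0.51) and IL6R (-0.40) fell.

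Of 14 genes of inducing cytokines and their receptors, 6 were tested in the first comparison. Of these 5 rose and 1 fell, with a median of 1.06, beside 37.9% rising and 37.0% falling of all genes tested. IFNGR1, a subunit of the interferon-gamma receptor, rose from 11.0 to 96.9 FPKM (3.03, SE 0.04), and IL1R1, the interleukin-1 receptor, from 5.08 to 30.5 FPKM (2.37). TNF, which induces most of the 10 genes in many cell types, rose from 1.49 to 6.47 FPKM (1.59), and IL1B was at 0.475 FPKM in SK/EPI (0.54). After BCRP silencing 10 were tested, with 3 rising, 2 falling and a median of 0.13, beside 19.4% rising and 18.7% falling of all genes. TNF rose from 8.29 to 15.9 FPKM (0.87, SE 0.04) and IFNGR1 fell (-0.32). IL17C (0.36) and LTB (0.33) rose at about 1 FPKM, and both calls were lost without the filter on low values, that of LTB also without any of 4 libraries.

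All 14 NF-kB genes were tested. In SK/EPI 8 rose and 3 fell, with a median of 0.22, beside 37.9% rising and 37.0% falling of all genes tested. TNFAIP3 (1.82), NFKBIZ (1.54) and NFKBIA (1.20), of which TNFAIP3 and NFKBIA encode inhibitors of the pathway and are themselves induced by it, rose most, and NFKB2, a subunit, rose by 1.02. After BCRP silencing 6 rose and 4 fell, with a median of 0.00, beside 19.4% rising and 18.7% falling of all genes tested. NFKB1, the p105/p50 subunit, fell from 9.84 to 5.02 FPKM (-0.85, SE 0.04), as did NFKBIZ (-0.62) and the kinase CHUK (-0.50). TNFAIP3 rose from 13.0 to 17.6 FPKM (0.41).

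Of 17 genes of interferon regulatory factors, STATs and nucleic acid sensors, 15 were tested. In SK/EPI 10 rose and 2 fell, with a median of 0.52, beside 37.9% rising and 37.0% falling of all genes tested. TMEM173 (STING), the adaptor of cytosolic DNA sensing, rose from 1.81 to 25.7 FPKM (3.25, SE 0.07), and DDX58 (RIG-I), an RNA sensor, from 1.29 to 10.1 FPKM (2.28). IRF7 (1.58) and IRF9 (1.47) rose as well. After BCRP silencing 4 of 15 rose and 4 fell, with a median of -0.03, beside 19.4% rising and 18.7% falling of all genes tested. IFIH1 (MDA5), another RNA sensor, rose by 0.36, TMEM173 by 0.30 and IRF1 by 0.21, while the kinase gene IKBKE fell (-0.36).

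Of 11 AP-1 and C/EBP genes, 10 rose in SK/EPI and 0 fell (0 unadjusted, 1 by voom), with a median of 1.11. In that comparison 37.9% of all genes tested rose and 37.0% fell. CEBPD rose from 10.8 to 110.4 FPKM (3.24, SE 0.04), and CEBPA (2.38), FOS (2.00) and JUND (1.48) followed. After BCRP silencing 0 of 10 rose (0 unadjusted and by voom) and 3 fell, CEBPB (-0.29), CEBPD (-0.25) and JUNB (-0.21), with a median of 0.01. In that comparison 19.4% of all genes tested rose and 18.7% fell. Of 6 genes of proteins that bind AU-rich elements, 3 rose and 3 fell in SK/EPI, with ZFP36L1 (-0.97) and HNRNPD (-0.61) falling and KHSRP (0.71) and ZFP36L2 (0.52) rising. After BCRP silencing ZFP36L2 fell (-0.45) and ELAVL1 rose (0.15). The call for ELAVL1, which encodes an mRNA-stabilizing protein, was lost without replicate 1 of either group.

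The proteases that release or trim chemokines all rose in SK/EPI, DPP4 from 0.109 to 1.67 FPKM (1.27) and ADAM10 (0.31) and ADAM17 (0.26) by less. DPP4 had 8 to 13 reads per SK-BR-3 library and 154 to 159 per SK/EPI library. It passed the filter on low values through SK/EPI alone, so only a rise could be called for it. After BCRP silencing 0 of the 3 passed, with a median of 0.11 and 2 rising at an unadjusted p under 0.05 and by voom. Of 19 other NF-kB target genes, 16 were tested. In SK/EPI 12 rose and 2 fell, with a median of 1.07, beside 37.9% rising and 37.0% falling of all genes tested. The acute-phase gene SAA1 rose from 1.41 to 70.1 FPKM (4.90, SE 0.13), SAA2 by 2.83, the adhesion molecule ICAM1 from 2.72 to 26.8 FPKM (2.90) and LCN2, an iron-binding protein of innate immunity, from 10.2 to 74.1 FPKM (2.74). SAA1 and SAA2 are near-identical, so their reads may be shared. After BCRP silencing 8 of 16 rose and 4 fell, with a median of 0.17, beside 19.4% rising and 18.7% falling of all genes tested. CSF1, the macrophage growth factor, rose from 11.5 to 18.5 FPKM (0.64) and complement C3 from 14.2 to 21.2 FPKM (0.55), while LCN2 fell from 116.5 to 57.1 FPKM (-1.02) and SAA2 fell by 0.66.

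**Figure D4:**
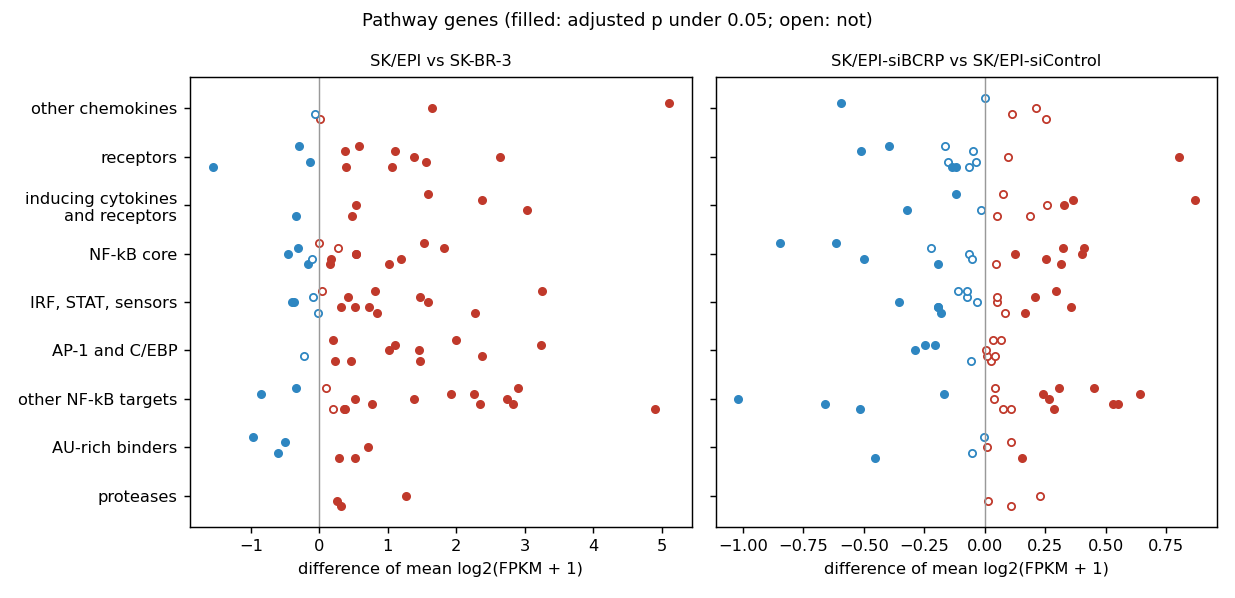
Difference of mean log2(FPKM + 1) of each tested pathway gene, by list, with SK/EPI vs SK-BR-3 on the left and SK/EPI-siBCRP vs SK/EPI-siControl on the right, on separate scales. Filled points passed the test and open points did not, red for positive and blue for negative differences, with 61 rising and 14 falling on the left and 23 each on the right.

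The 5 genes with the pattern most like that of CCL5 were found by the root mean square difference of log2(FPKM + 1), centred on each table, over the 12 libraries. Candidates were 5559 genes that were tested in both tables and reached a group mean of 10 FPKM. They were ALPP (0.28), an alkaline phosphatase, AKR1B10 (0.38), an aldo-keto reductase, SPARC (0.39) and COL14A1 (0.47), both of the extracellular matrix, and TIMP3 (0.40), a metalloproteinase inhibitor. ALPP was nearest, at 2.78 ± 0.521 FPKM in SK-BR-3, 468.9 ± 17.2 in SK/EPI, 182.1 ± 2.87 in SK/EPI-siControl and 336.1 ± 7.57 in SK/EPI-siBCRP. Centring leaves out the step from SK/EPI to SK/EPI-siControl, in which the other genes differed. In these 2 groups TIMP3 was at 156.5 and 73.1 FPKM, COL14A1 at 119.4 and 98.7, AKR1B10 at 182.9 and 165.9, and SPARC at 142.9 and 179.2. ALPP and AKR1B10 have near-identical copies, so their levels are uncertain.

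The 4 genes other than ALPP had log2 differences of 0.10 to 0.39 after BCRP silencing, below the 1.16 of CCL5, so their likeness came mostly from the first table. The chromosomal neighbours of CCL5 were examined as well. Of 69 genes with a start within 500 kb of that of CCL5, 16 were tested in the first comparison, and 11 rose and 2 fell. Of all genes tested in that comparison, 37.9% were called higher and 37.0% lower. Some neighbours passed the filter on low values through 1 group alone, so only 1 direction could be called for them. MMP28 (0 FPKM in SK-BR-3) and GAS2L2 (0.0119 FPKM in SK-BR-3) could only be called higher. SLFN13 (0.0114 FPKM in SK/EPI) could only be called lower. The log2 differences of the tested neighbours lay between -1.15 (SLFN13) and 1.33 (GAS2L2), against 7.68 for CCL5. After BCRP silencing 15 neighbours were tested, and 2 rose and 3 fell, where 19.4% of all genes tested were called higher and 18.7% lower. Among these neighbours the highest difference was 0.41 (TBC1D3G, which did not pass the test), against 1.16 for CCL5.

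**Figure D5:**
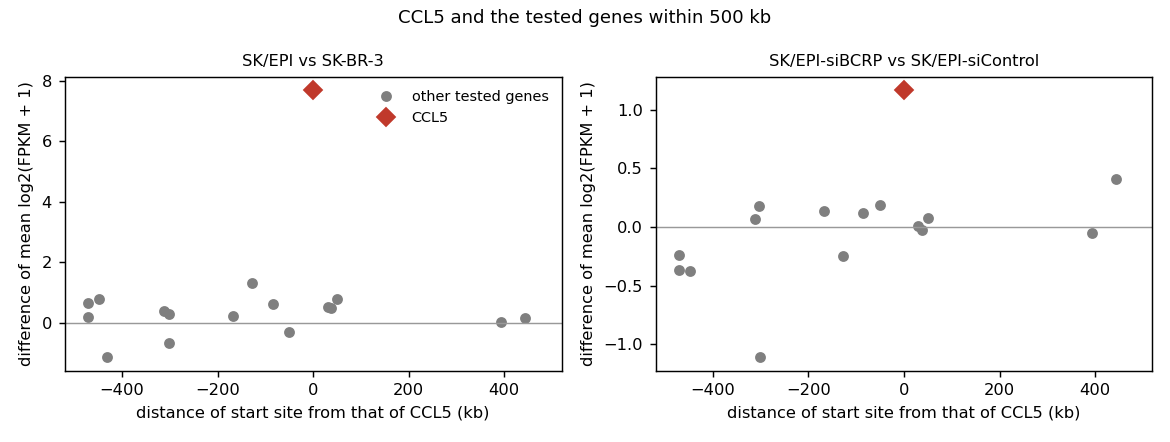
Difference of mean log2(FPKM + 1) of CCL5 (red diamond) and of the other tested genes within 500 kb (grey), by distance between start sites in kb, for SK/EPI vs SK-BR-3 (left) and SK/EPI-siBCRP vs SK/EPI-siControl (right). CCL5 stood at 7.68 and 1.16, above every tested neighbour.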

How the data were processed

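RNA-seq libraries of 4 groups of established cell lines, 3 each, were made with a NEBNext Ultra kit and sequenced by NovoGene. The authors deposited FPKM in 2 tables of 58735 genes. Per the submitters' processing notes, HISAT2 2.0.5, featureCounts 1.5.0-p3, DESeq2 1.16.1 and hg38 were used, with roles, strand setting and multi-mapping not given in the sources used here. The tables name no unit. FPKM was inferred because each value from few enough reads to check, times the merged exon length in GENCODE 29, was a whole multiple of a step per library, within 0.02 reads. Reads on genes came to 99.8% to 101% of the scaling total implied by the steps in SK-BR-3, 92.8% to 95.4% in SK/EPI and 89.5% to 90.7% in the second table, so a gene's FPKM depends on the total used. Every column was used.

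Groups were taken from the titles. Genes reaching 10 reads, at the median library size, in 3 libraries and 15 in all were tested within each table on log2(FPKM + 1) with limma 3.58.1 (lmFit, eBayes with trend) in R 4.3.3, with Benjamini-Hochberg adjustment. No test crossed the tables. Ratios of reads carry exact binomial 95% intervals which, like the floor of 3 reads, cover counting error only. Medians and counts over genes that passed the filter describe those genes alone.

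The genes, lists and tests were chosen with earlier results of these data known. Named were all 10 genes, ABCG2, up to 4 called genes per list and comparison with the largest log2 difference, the 5 genes most like CCL5, the leading markers, and, chosen after their values were seen, AC073072.1, untested or uncalled list genes and the neighbours at the ends of their range. The symbol CCL3L3 was not matched. Some genes of the lists and neighbourhoods are not reported here by name. Sequences are from GENCODE 29 transcripts and RefSeq promoters (GRCh38.p14), without liftover.

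On simulated reads with 200 genes changed by a log2 of 1, the test recovered 81% in the first table (15823 genes, 11 unchanged genes called) and 83% in the second (16298 genes, 7 called). In the data 74.9% and 38.1% of genes were called, far more than were changed in the simulation. Its rates may therefore not hold for these comparisons. Alternatives were a pseudocount of 0.1, no filter, 2 other scalings, limma's voom on recovered reads, a replicate block and leaving out each library. Ratios of reads without each SK-BR-3 library were added after seeing the data. Other steps used Python 3.11.15 with pandas 2.3.3, scipy 1.17.1, numpy 2.4.6 and matplotlib 3.10.9.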

Additional observations from a re-analysis of the deposited data

How the results depend on the processing

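Of 708 values of 59 differences of pathway genes, over all alternatives, 689 kept their call, 19 lost it and 0 changed direction. Those lost were all after BCRP silencing and included ELAVL1, IL17C and LTB, with adjusted p from 0.0519 to 0.203. The size of low-level differences depended on the pseudocount. For SK/EPI vs SK-BR-3, CCL5 was at 10.46 with 0.1 added and 11.83 with voom, against 7.68, and IL6 at 4.61 and 7.01, against 1.82. Scaling to reads on genes put CCL2 at 3.89 and shifted the split of all genes to 6697 higher and 5263 lower, from 6002 and 5852. Without the filter 6 other chemokines were called higher in SK/EPI. Leaving out 1 library gave 7.64 to 7.75 and 1.15 to 1.18 for CCL5, and 74 to 75 and 40 to 45 called list genes, against 75 and 46. Replicate numbers did not pair libraries, with correlations of deviations from -0.05 to 0.06. A replicate block gave 75 and 43 called list genes and left CCL5 at 7.68 and 1.16. Depth limits CXCL1, CXCL2, CXCL10 and CCL20, and the SK-BR-3 levels of CCL5 and IL6.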
